A study of Mus musculus with 12 samples.

Results

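The collagen chain genes, which encode the structural proteins of the lung's fibrils and basement membranes, were examined in RNA from whole lungs of 12 mice given LPS. A gene was a member if its symbol in the deposited table was Col, a number, the letter a and a further number. This rule used no expression value and took 44 of the 55414 genes in the table. Type XXI collagen was not analysed here. The lungs came from 6 IL-10 B-WT mice and 6 IL-10 B-KO mice, and RNA was taken on day 4 after LPS, the lipopolysaccharide of bacterial outer membranes that causes acute lung injury when it reaches the airways. The comparison asked how loss of interleukin-10 (IL-10) from B cells changed the lung at this time.

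In IL-10 B-KO mice, both copies of Il10 are floxed and are cut by Cre made from the mb1 locus. That locus is Cd79a, which is active throughout the B lineage, so Il10 in other cells is left intact. All mice had the C57BL/6J background and all were given 50 µg LPS, and no lung without LPS was analysed here. The sources used here do not state which floxed or Cre alleles the IL-10 B-WT mice carried, nor the age of the mice. The lungs are named below as WT1 to WT6 and KO1 to KO6, the numbers being those of the labels.

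The values were TPM, a transcript's share of all transcripts scaled for transcript length, so levels can be set side by side between genes as well as between lungs. TPM keep no record of sequencing depth, which is therefore unknown here. Il10 itself was listed at 0 to 0.88 TPM across IL-10 B-WT lungs and at 0 to 0.58 TPM across IL-10 B-KO lungs, a level at which whole-lung RNA does not check a deletion limited to B cells. Cd79a lay between 15.3 and 258.6 TPM for IL-10 B-WT and between 0 and 5.73 TPM for IL-10 B-KO. The alveolar markers matched the tissue label, with sums over 8 alveolar type 2 genes of 3354 to 17663 TPM for IL-10 B-WT and of 12250 to 22035 TPM for IL-10 B-KO. The median rank correlation over genes to the other lungs of the genotype was lowest in WT1, at 0.876, followed by WT5 at 0.910 and KO2 at 0.912, the lowest of IL-10 B-KO. WT1 held the highest fibrillar collagen level of its genotype, KO2 held the lowest of all 12 lungs, and WT5 held the lowest value of 8 members.

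Collagens are built from chains that wind around each other in a triple helix, and the chains a cell makes decide which assembly forms. Fibrillar types I, III and V form the tensile fibrils of the airway wall and pleura, whereas type IV forms the sheet of the basement membrane that alveolar epithelium and capillary endothelium share. Type VI makes beaded filaments around cells, the FACIT collagens sit on the surface of fibrils, and type VIII forms a short-chain network in vessel walls. During repair of an injured lung, fibroblasts and related mesenchymal cells deposit new matrix, of which types I and III are the best known part.

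The domain annotation deposited with the table followed this grouping. All 44 members carried the collagen triple-helix repeat, as did 37 other genes. The fibrillar propeptide domain was found in 11 members, which were the 11 genes of the fibrillar class, and in 1 other gene. The C4 domain was found in the 6 type IV genes and in no other gene. The C1q domain was found in the 3 genes of types VIII and X, and also in 27 genes outside the family. The endostatin domain was found only in Col15a1 and Col18a1. The von Willebrand factor A domain was spread over 12 members, of which 6 were the type VI genes and 4 were FACIT genes.

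The collagen genes together made up a small part of the lung's transcripts, and their amount varied greatly between mice of 1 genotype. Summed over the 44 members, the level was 715 TPM at the lowest, 898 TPM at the median and 2707 TPM at the highest in IL-10 B-WT lungs. In IL-10 B-KO lungs it was 616 TPM, 1545 TPM and 3170 TPM. These sums were 0.0616% to 0.317% of all TPM. KO3, WT1, KO5 and KO4, in this order, held 1884 TPM or more, and the other 8 lungs held between 616 and 1205 TPM. High collagen was thus found in 1 lung of 6 in IL-10 B-WT and in 3 of 6 in IL-10 B-KO.

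The makeup of the collagen pool moved with its size: type IV chains took less of the pool in each of the 4 collagen-rich lungs than in any of the other 8. Col4a1, Col3a1, Col4a2 and Col1a1 were the most abundant members on average and held 56.6% to 72.3% of collagen TPM in each lung. Fibrillar chains took 15.5% of collagen TPM in KO2 and 50.9% in KO3, the extremes of the 12 lungs. As a share, type IV chains ran the other way, with 60.9% in KO2 and 25.1% in KO3. Their summed TPM did not fall in the collagen-rich lungs. It was 960 in WT1, 906 in KO5, 797 in KO3 and 655 in KO4, and between 348 and 678 in the other 8 lungs. In WT1, fibrillar chains took 44.8% and type IV chains 35.5%. KO3 had the highest value of 15 of the 28 members whose level was sufficient for testing, and KO2 had the lowest value of 12.

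**Figure D1:**
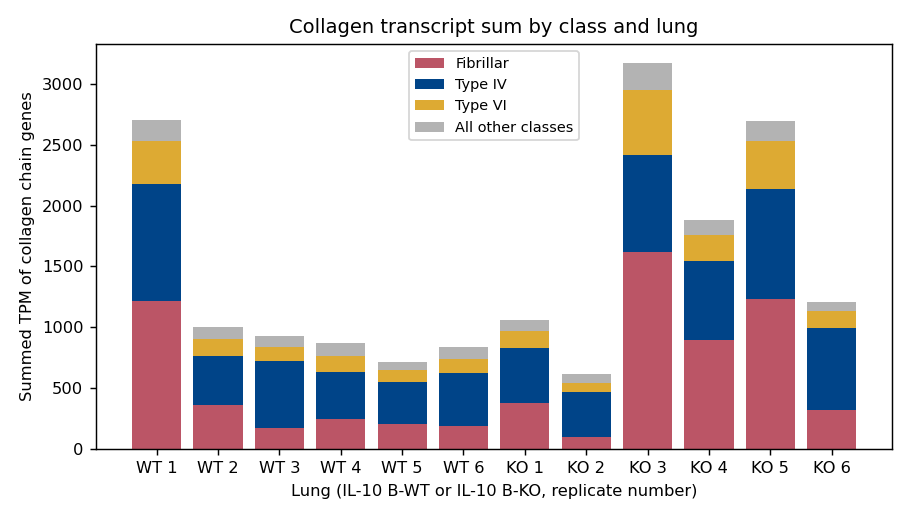
Collagen TPM per lung, stacked by collagen class, with the 6 lungs of IL-10 B-WT mice beside the 6 of IL-10 B-KO mice. The bars of WT1, KO3, KO4 and KO5 reach 1884 TPM or more, and much of their extra height is in the fibrillar class.

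**Figure D2:**
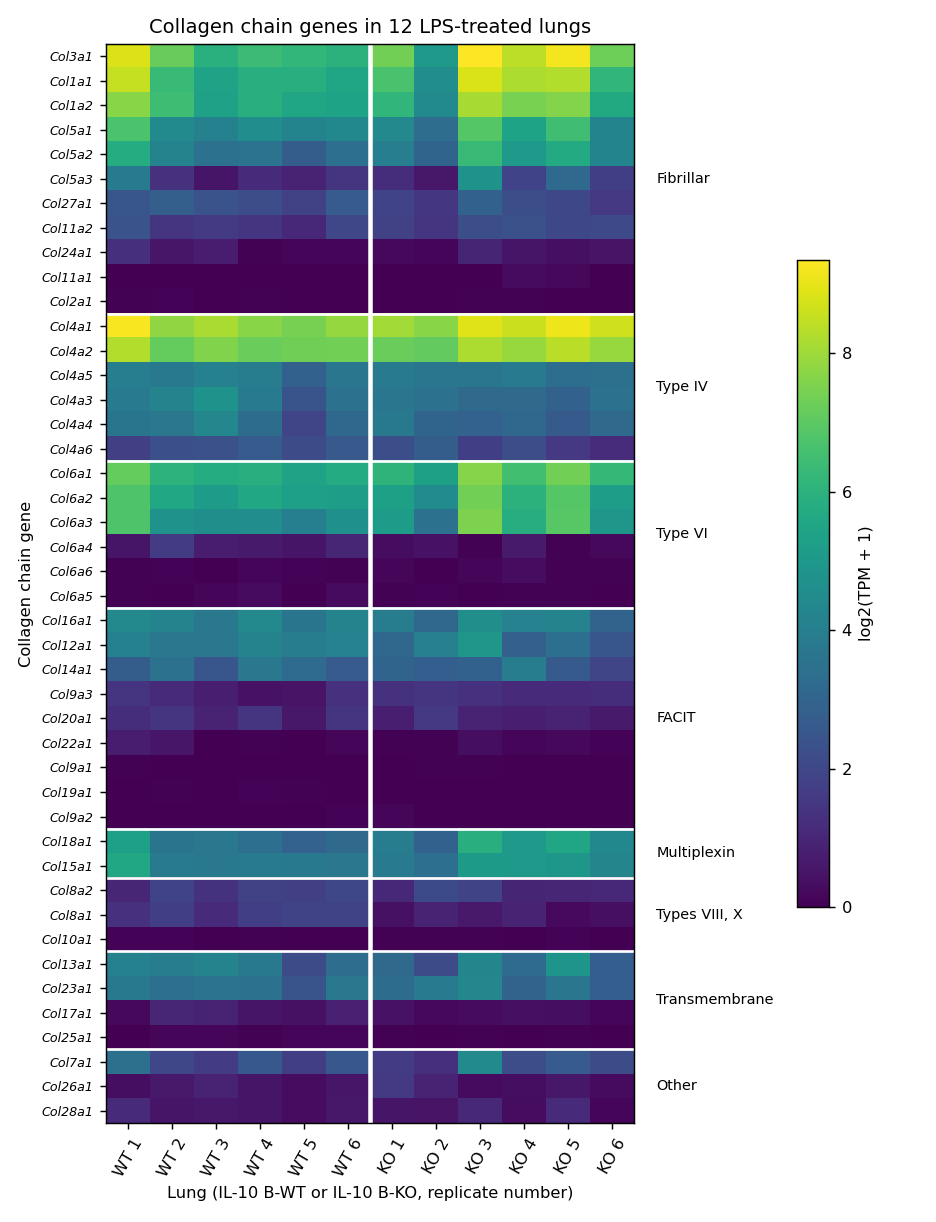
Level of each collagen gene in each lung as log2(TPM + 1), with genes in rows by class and lungs in columns by genotype. Col4a1 and Col4a2 are bright in every lung, Col1a1 and Col3a1 are brightest in WT1, KO3, KO4 and KO5, and many members of the FACIT, transmembrane and other classes lie near 0.

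Between the genotypes, 1 collagen gene was called as different and the others were not. The test was limma on log2(TPM + 1) over the 15148 genes with at least 1 TPM in at least 6 of the 12 libraries, with p-values adjusted by Benjamini-Hochberg over all of them. Genes called had an adjusted p no larger than 0.05 together with a log2 fold change of 1 or more in size. Over all genes tested, 75 were called, which is 0.495%. Of the 44 collagen genes, 28 entered the test and 16 did not reach the level. The gene called was Col8a1, which was lower under IL-10 B-KO and entered the test through the IL-10 B-WT lungs alone. With no adjustment, no collagen gene was higher at a limma p of at most 0.05, against 6.83% of all genes tested. Without WT1 this count was 7 of 27, against 17.9% of all genes, and without KO2 it was 6 of 28, against 11.2%. In all 12 lungs Col8a1 alone was lower at that level, 1 of the 28, against 5.71% of all genes tested. Col8a1 was also the only tested member whose TPM did not overlap between the genotypes, 1 of the 28, against 1.02% of all genes tested. All 6 IL-10 B-WT lungs and no IL-10 B-KO lung reached 1 TPM. Its way into the test therefore already fixed that the genotypes did not overlap, which adds no support to the call. No untested member was free of overlap.

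In direction, 17 tested members had a higher fitted mean in IL-10 B-KO lungs and 11 a lower. Their median log2 fold change was 0.29, beside 0.10 over all genes tested. The share with a higher mean was 60.7% of tested members and 63.2% of all genes tested. By class, the median log2 fold change was 0.62 over 8 tested fibrillar genes, 0.63 over both multiplexins, 0.53 over 3 type VI genes, -0.15 over 6 type IV genes, -0.22 over 4 FACIT genes and -0.68 over both type VIII genes. The median of all collagen genes rested on KO3: without this lung it was 5.26e-05. It was 0.09 without KO5 and 0.47 without WT1.

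**Figure D3:**
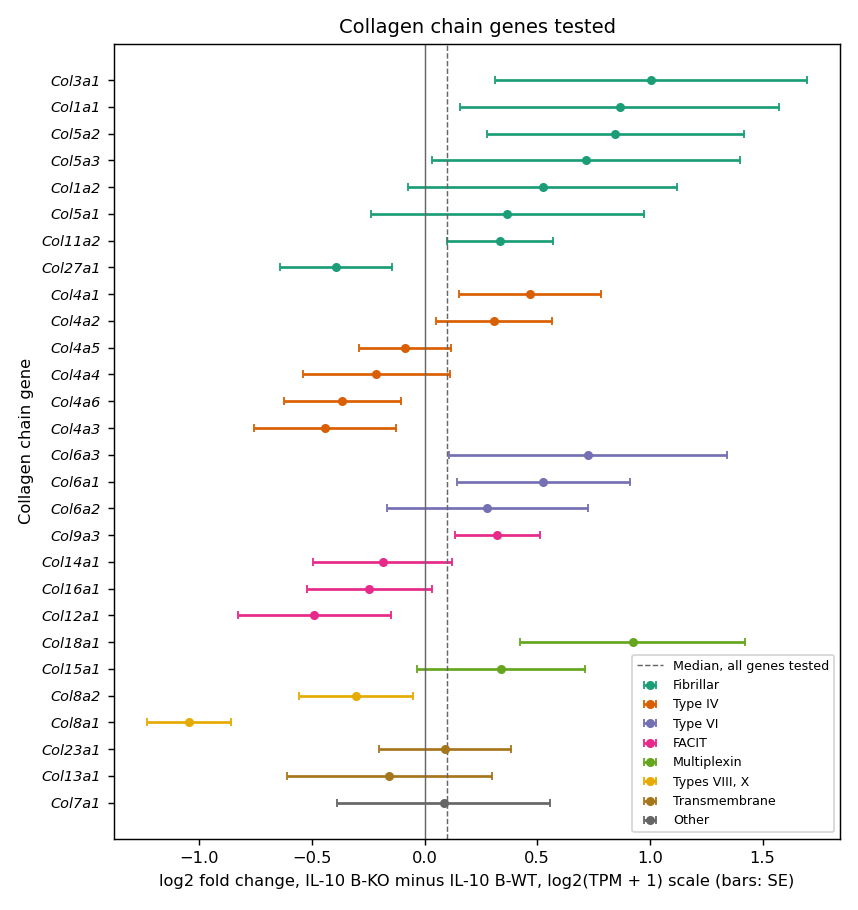
Log2 fold change of IL-10 B-KO over IL-10 B-WT on the log2(TPM + 1) scale for each of the 28 tested collagen genes, with its standard error, by class. Col8a1 at -1.05 is the gene called, and Col3a1 at 1.01 has the largest positive value with a standard error of 0.69.

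Types I and III, the main fibril formers, were higher on average in IL-10 B-KO lungs, but the genotypes overlapped widely. Col1a1, the alpha 1 chain of type I, lay at 40.4, 58.5 and 366.4 TPM (lowest, median and highest) in IL-10 B-WT lungs and at 23.1, 198.0 and 452.2 TPM across IL-10 B-KO lungs. The fitted log2 fold change was 0.87 (SE 0.71) with a limma adjusted p of 0.593. Lung WT1 was the high IL-10 B-WT lung, which 1 of 6 IL-10 B-KO lungs exceeded, and 4 of 6 exceeded the other IL-10 B-WT lungs.

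Col1a2, the partner chain in the type I helix, lay at 40.1, 51.5 and 205.9 TPM across IL-10 B-WT lungs and at 20.5, 122.1 and 281.0 TPM across IL-10 B-KO lungs. This gave a log2 fold change of 0.52 (SE 0.60) with a limma adjusted p of 0.706. The ratio of Col1a1 to Col1a2 was far steadier than either chain. It ranged 1.90-fold over the 12 lungs, from 0.93 to 1.78, while Col1a1 ranged 19.6-fold and Col1a2 13.7-fold. The median ratio was 1.03 for IL-10 B-WT against 1.52 for IL-10 B-KO, and the genotypes overlapped.

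Col3a1, the single chain of type III collagen that forms fibrils together with type I, lies on chromosome 1 at 45311538 to 45349706, plus strand (GRCm38). It was the member with the largest positive difference, and the 250 bases before its start in RefSeq are shown with the TATAAA match in capitals, at chr1:45311288-45311537, plus strand, build GRCm38.p6.
Col3a1: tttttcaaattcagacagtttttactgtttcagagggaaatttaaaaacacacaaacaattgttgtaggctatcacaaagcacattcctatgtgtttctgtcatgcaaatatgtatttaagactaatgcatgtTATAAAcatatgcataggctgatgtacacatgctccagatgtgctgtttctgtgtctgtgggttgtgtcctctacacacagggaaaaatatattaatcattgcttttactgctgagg

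Col3a1 lay at 60.6, 77.9 and 460.1 TPM across IL-10 B-WT lungs and at 31.9, 251.0 and 649.9 TPM across IL-10 B-KO lungs. Between genotypes the log2 fold change was 1.01 (SE 0.69), with a limma adjusted p of 0.534 and a two-sided exact permutation p of 0.232. It followed Col1a1 closely from lung to lung: the ratio of Col3a1 to Col1a1 stayed between 1.15 and 2.23, while Col3a1 ranged 20.4-fold. WT1 lay within the IL-10 B-KO range, and 5 of 6 IL-10 B-KO lungs exceeded every IL-10 B-WT lung other than WT1. With WT1 counted, 2 of 6 did. Without KO3, its log2 fold change was 0.69.

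**Figure D4:**
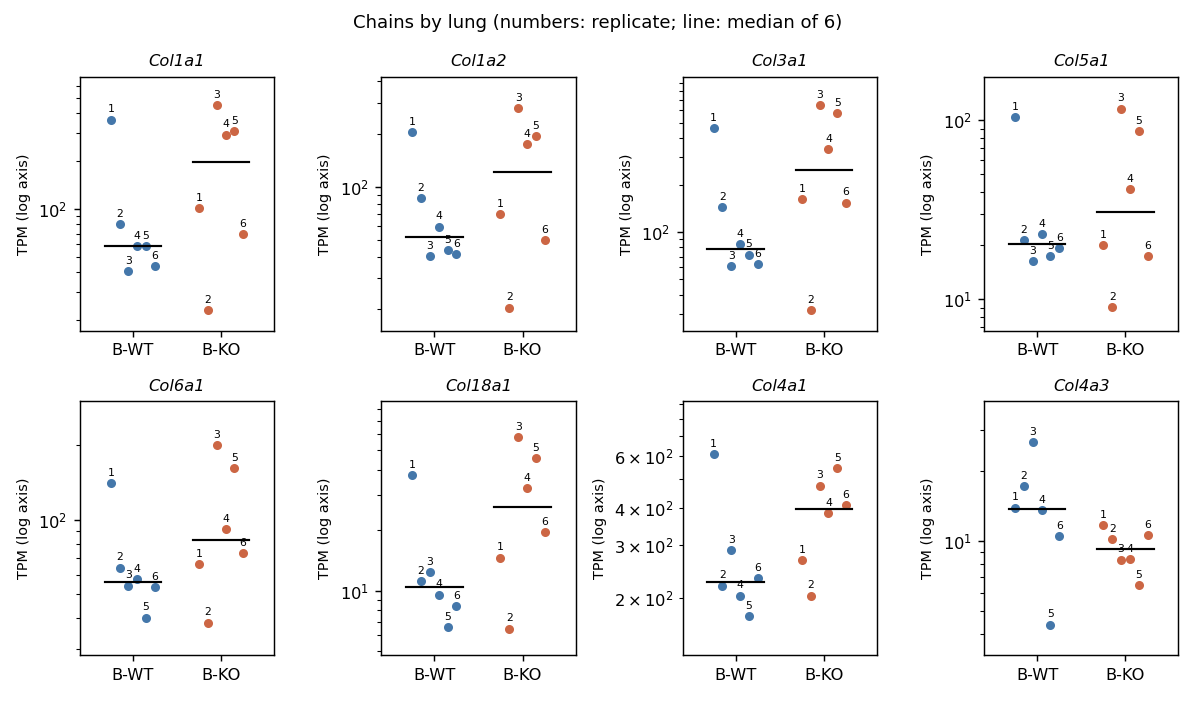
TPM per lung on a log axis for the major fibrillar, type IV, type VI and multiplexin chains, with 1 point per lung, the lung number beside it and a bar at the median of each genotype. WT1 lies above the other IL-10 B-WT lungs for Col1a1, Col3a1 and Col18a1, and for Col1a1 and Col3a1 the IL-10 B-KO lungs spread from KO2 at the bottom to KO3 at the top.

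Type V collagen, which starts fibrils and sets their width, also varied widely between lungs. Col5a2 lay at 5.76, 10.5 and 53.7 TPM across IL-10 B-WT lungs and at 7.02, 24.4 and 77.6 TPM across IL-10 B-KO lungs, with a log2 fold change of 0.85 (SE 0.57) and a limma adjusted p of 0.526. Col5a1 reached 104.1 TPM in WT1 and 116.4 TPM in KO3, with a log2 fold change of 0.37. Col5a3 was the least abundant type V chain, at 0.44 to 26.4 TPM, with a log2 fold change of 0.72. Col5a2 and Col3a1 are neighbours on chromosome 1, lying tail to tail with 24614 bases between them.

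The remaining fibrillar genes were low. Col11a2 lay at 1.09, 1.89 and 4.21 TPM across IL-10 B-WT lungs and at 1.66, 3.14 and 4.05 TPM across IL-10 B-KO lungs, with a log2 fold change of 0.33 (SE 0.23) and a limma adjusted p of 0.536. Col27a1 was the only tested fibrillar gene with a lower mean in IL-10 B-KO lungs. It lay at 2.6, 4.46 and 6.13 TPM across IL-10 B-WT lungs and at 1.81, 2.92 and 6.43 TPM across IL-10 B-KO lungs, with a log2 fold change of -0.39 (SE 0.25) and a limma adjusted p of 0.502. The cartilage chains Col2a1 and Col11a1 did not exceed 0.21 TPM in any lung, and Col24a1 did not exceed 1.37 TPM. None of 8 cartilage markers reached the level for testing, and their sum lay between 0.75 and 3.22 TPM.

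The type IV genes are arranged in head-to-head pairs. Over these lungs the ratio ranged 1.81-fold for Col4a1 to Col4a2, 1.68-fold for Col4a3 to Col4a4 and 4.28-fold for Col4a5 to Col4a6. The last range was wider than that of Col4a5 alone, at 2.56-fold, and close to that of Col4a6, at 4.60-fold. The ratio of Col4a1 to Col4a3 ranged 7.80-fold and was the only ratio between pairs that was computed. It sets an abundant chain against a low chain. Whether paired chains kept a steadier ratio than unpaired chains was therefore not tested. On chromosome 8, Col4a1 (11198423 to 11312826, minus strand) and Col4a2 (11312805 to 11449287, plus strand) overlap by 22 bases at their annotated starts in GRCm38. This shared stretch is shown because transcription leaves it in both directions, with a GC box (GGGCGG) in capitals, at chr8:11312805-11312826, plus strand.
Col4a1 and Col4a2: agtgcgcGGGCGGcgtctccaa
The gap between the starts of Col4a3 and Col4a4 on chromosome 1 is 71 bases, and that between Col4a5 and Col4a6 on chromosome X is 1308 bases. Where genes overlap on opposite strands, reads from the overlap cannot be told apart without strand information, but here the overlap is short.

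Col4a1 and Col4a2, the chains of the widespread basement membrane network, were the abundant pair. Col4a1 lay at 172.9, 226.1 and 610.4 TPM across IL-10 B-WT lungs and at 203.0, 397.0 and 546.9 TPM across IL-10 B-KO lungs. The fitted log2 fold change was 0.47 (SE 0.31) with a limma adjusted p of 0.525. WT1 was the highest lung of all 12, and 4 of 6 IL-10 B-KO lungs exceeded the other IL-10 B-WT lungs.

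Col4a2 lay at 138.5, 161.0 and 307.3 TPM across IL-10 B-WT lungs and at 137.4, 237.7 and 335.5 TPM across IL-10 B-KO lungs. This gave a log2 fold change of 0.31 (SE 0.26) with a limma adjusted p of 0.602. The ratio of Col4a1 to Col4a2 stayed between 1.10 and 1.99.

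Col4a3 and Col4a4, chains of the specialised network of the alveolar and glomerular basement membrane, were lower on average in IL-10 B-KO lungs. Col4a3 lay at 4.37, 13.8 and 26.7 TPM across IL-10 B-WT lungs and at 6.49, 9.30 and 11.7 TPM across IL-10 B-KO lungs, with a log2 fold change of -0.44 (SE 0.31) and a limma adjusted p of 0.543. Col4a4 lay at 2.88, 10.0 and 18.9 TPM across IL-10 B-WT lungs and at 5.31, 7.49 and 12.7 TPM across IL-10 B-KO lungs, with a log2 fold change of -0.21 (SE 0.33) and a limma adjusted p of 0.785. The genotypes overlapped for both chains. The ratio of Col4a3 to Col4a4 stayed between 0.92 and 1.55, whereas the ratio of Col4a1 to Col4a3 ran from 10.8 to 84.3, with medians of 18.5 for IL-10 B-WT against 42.3 for IL-10 B-KO.

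Col4a5, which joins Col4a3 and Col4a4 in that network, was the steadiest type IV chain next to Col4a2. It lay at 6.42, 13.4 and 16.5 TPM across IL-10 B-WT lungs and at 9.47, 11.6 and 13.8 TPM across IL-10 B-KO lungs, with a log2 fold change of -0.09 (SE 0.20) and a limma adjusted p of 0.863. Col4a6, its partner outside the alveolus, lay at 2.45, 3.93 and 5.53 TPM across IL-10 B-WT lungs and at 1.26, 3.01 and 5.79 TPM across IL-10 B-KO lungs, with a log2 fold change of -0.36 (SE 0.26) and a limma adjusted p of 0.543. This pair was the loosest, with a ratio of Col4a5 to Col4a6 from 1.84 to 7.90.

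Type VI collagen, the beaded filament around cells, is assembled from the products of Col6a1, Col6a2 and Col6a3, and these were its abundant chains. Col6a1 lay at 40.3, 55.8 and 140.3 TPM across IL-10 B-WT lungs and at 38.5, 82.4 and 199.3 TPM across IL-10 B-KO lungs, with a log2 fold change of 0.53 (SE 0.38) and a limma adjusted p of 0.552. Col6a2 was at 0.28 log2 (limma adjusted p = 0.795) and Col6a3 at 0.73 log2 (adjusted p = 0.608). Col6a1 and Col6a2, which lie on the same strand of chromosome 10 with 85161 bases between them, kept a ratio between 1.06 and 2.03. All 3 chains were highest in KO3 and lowest in KO2.

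The other type VI genes, Col6a4, Col6a5 and Col6a6, form a cluster on chromosome 9 and were too low to enter the test. Col6a5 and Col6a6 did not exceed 0.23 TPM. Col6a4 lay at 0.43, 0.62 and 2.13 TPM across IL-10 B-WT lungs and at 0.04, 0.19 and 0.60 TPM across IL-10 B-KO lungs. Below all values of IL-10 B-WT lay 5 of 6 IL-10 B-KO lungs, and the two-sided exact permutation p was 0.0108 before any correction over the 44 members examined this way. With no filter on low values, its limma adjusted p was 0.506.

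The multiplexins, basement membrane collagens whose ends release endostatin-like fragments, were tested in full. Col18a1 was highest in KO3, KO5, WT1 and KO4, which were also the lungs with the most fibrillar collagen. It lay at 6.58, 10.4 and 37.7 TPM across IL-10 B-WT lungs and at 6.46, 25.9 and 58.2 TPM across IL-10 B-KO lungs. Between genotypes the log2 fold change was 0.92 (SE 0.50), with a limma adjusted p of 0.455 and a two-sided exact permutation p of 0.130. In 5 of 6 IL-10 B-KO lungs Col18a1 exceeded every IL-10 B-WT lung other than WT1, and in 2 of 6 it exceeded WT1 too. Col15a1 lay at 12.0, 13.2 and 47.3 TPM across IL-10 B-WT lungs and at 9.67, 24.1 and 33.2 TPM across IL-10 B-KO lungs, with a log2 fold change of 0.34 (SE 0.37) and a limma adjusted p of 0.695. For Col15a1 as well, 5 of 6 IL-10 B-KO lungs exceeded every IL-10 B-WT lung other than WT1. WT1 itself was the highest of all 12 lungs, and KO1 at 13.97 TPM was barely above WT2 at 13.86 TPM.

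The calls among fibrillar genes depended on which lungs were kept. In a comparison chosen after their values were seen, WT1 and KO2, the lungs least like the others of their genotype and also the highest IL-10 B-WT and the lowest IL-10 B-KO lung in fibrillar collagen, were both left out. The limma fit to the other 10 lungs called 6 of 28 tested collagen genes, beside 9.91% of all 15151 genes tested. Under IL-10 B-KO the genes higher by this fit were Col3a1 at 1.97 log2 (adjusted p = 0.00845), Col1a1 at 1.83 (adjusted p = 0.0198), Col18a1 at 1.58 (adjusted p = 0.00912), Col5a2 at 1.57 (adjusted p = 0.0256) and Col6a3 at 1.53 (adjusted p = 0.0323). Col8a1 was lower. Calls rose over the whole table as well, from 75 to 1501. Without WT1 alone, 576 genes were called and no collagen gene, Col8a1 having dropped below the level for testing. With WT5 left out as well, 4 of 28 were called (Col1a1, Col3a1, Col18a1 and Col8a1), beside 7.92% of all genes tested. With WT1 and WT5 left out, the lungs with the lowest correlations of all 12, only Col8a1 was called among 29 tested members, beside 1.14% of all genes tested. Nothing in the labels marks any of these lungs as faulty, so these calls do not replace those of the 12 lungs.

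The FACIT collagens, which attach to the surface of fibrils, had 3 of 4 tested members with a lower mean in IL-10 B-KO lungs. Col12a1, which coats type I fibrils, was tight in IL-10 B-WT lungs at 12.5, 15.3 and 17.2 TPM and wide in IL-10 B-KO lungs at 4.64, 8.72 and 29.8 TPM. Of the 6 IL-10 B-KO lungs, 4 lay under all those of IL-10 B-WT, and KO3 was above them all. The log2 fold change was -0.49 (SE 0.34), with a limma adjusted p of 0.534 and a two-sided exact permutation p of 0.221. Without KO3 the log2 fold change was -0.78, with an exact permutation p of 0.0152 and a limma adjusted p of 0.372. Each lung was left out in turn, and this fit is named because KO3 was the lung that went the other way. Its p-values therefore do not replace those of the 12 lungs.

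Col16a1, the FACIT member with the highest mean, lay at 11.3, 17.1 and 20.3 TPM across IL-10 B-WT lungs and at 6.82, 15.5 and 23.8 TPM across IL-10 B-KO lungs. The fitted log2 fold change was -0.25 (SE 0.28) with a limma adjusted p of 0.703. Col14a1 had a log2 fold change of -0.19. Col9a3 was low, at 0.38, 0.945 and 1.71 TPM for IL-10 B-WT and 1.19, 1.42 and 1.63 TPM for IL-10 B-KO, with a log2 fold change of 0.32 (SE 0.19) and a limma adjusted p of 0.479. Its partners in cartilage type IX, Col9a1 and Col9a2, did not exceed 0.08 TPM, and Col19a1 did not exceed 0.07 TPM. Col22a1 reached 0.65 TPM and Col20a1 reached 1.95 TPM, and neither entered the test.

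Type VIII collagen, a short-chain network found around vessels, contained the gene that was called. Col8a1 lies on chromosome 16 at 57624258 to 57754737, minus strand, and Col8a2 lies on chromosome 4, plus strand (GRCm38). The 250 bases before each start in RefSeq (GRCm38.p6) are shown side by side because Col8a1 was called and its partner was not, a difference that was not itself tested, with GC boxes (GGGCGG or CCGCCC) in capitals, at chr16:57754738-57754987, minus strand, and chr4:126286544-126286793, plus strand.
Col8a1: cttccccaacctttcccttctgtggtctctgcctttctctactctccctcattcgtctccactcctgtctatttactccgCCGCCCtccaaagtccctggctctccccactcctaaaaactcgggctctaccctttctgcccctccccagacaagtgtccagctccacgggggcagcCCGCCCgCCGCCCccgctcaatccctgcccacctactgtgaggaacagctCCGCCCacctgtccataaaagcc
Col8a2: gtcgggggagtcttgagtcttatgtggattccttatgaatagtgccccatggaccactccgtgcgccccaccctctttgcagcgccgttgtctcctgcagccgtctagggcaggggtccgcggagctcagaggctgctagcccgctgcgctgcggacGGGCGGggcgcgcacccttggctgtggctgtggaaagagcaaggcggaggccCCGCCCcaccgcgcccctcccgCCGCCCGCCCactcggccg
Each stretch held 4 GC boxes, overlapping matches included. Of 35 members with a RefSeq entry, giving 38 stretches of this kind, 57.9% of stretches held a GC box on either strand, beside 32.7% of 32851 stretches over all genes. TATAAA or its reverse TTTATA was found in 13.2% beside 12.4%, and CCAAT or its reverse ATTGG in 34.2% beside 33.8%.

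Col8a1 lay at 1.55, 2.33, 1.23, 2.34, 2.74 and 2.79 TPM in WT1 to WT6 and at 0.35, 0.89, 0.54, 0.88, 0.18 and 0.32 TPM in KO1 to KO6. The highest value of an IL-10 B-KO lung, 0.89 TPM in KO2, was under the lowest of an IL-10 B-WT lung, 1.23 TPM in WT3, so the groups did not overlap. The mean was 2.16 ± 0.637 TPM (SD, n = 6) for IL-10 B-WT and 0.527 ± 0.300 TPM (SD, n = 6) for IL-10 B-KO. The log2 fold change on the log2(TPM + 1) scale, which understates changes at such low levels, was -1.05 (SE 0.19), with a limma adjusted p of 0.0236. The two-sided exact permutation p was 0.00216, the smallest that 924 arrangements can give. Groups of 6 without overlap always give this p. The way into the test had already fixed the lack of overlap, so this p adds no support to the call.

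The Col8a1 call was close to the threshold. All 6 IL-10 B-WT lungs and no IL-10 B-KO lung reached 1 TPM, so the gene entered the test through the group where it was high and left it when any IL-10 B-WT lung was removed. With a filter on the mean over all 12 lungs, which does not depend on genotype, the limma adjusted p was 0.0476, and with no filter it was 0.0924. Without KO1, KO3, KO5 or KO6 the adjusted p was 0.0703, 0.0595, 0.0749 or 0.0630. With the filter lowered to 5 libraries it was 0.0552, 0.0698, 0.0686 and 0.0657 without WT2, WT4, WT5 and WT6. Over the 23 alternative fits that held Col8a1, the log2 fold change stayed negative, from -1.94 to -0.96. The value of -1.94 came with a pseudocount of 0.1, a scale unlike that of the other fits. The adjusted p ran from 0.00333 to 0.113 and the gene was called in 10. These 10 include fits added after the data were seen.

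Col8a2, the partner chain of type VIII, lay at 1.03, 2.52 and 3.07 TPM across IL-10 B-WT lungs and at 0.95, 1.09 and 3.31 TPM across IL-10 B-KO lungs. This gave a log2 fold change of -0.30 (SE 0.25) with a limma adjusted p of 0.599. In KO2 it was above the IL-10 B-WT range, and in KO3, KO1 and KO6 it was within it, at 2.73, 1.10 and 1.07 TPM. In KO4 and KO5 it was below that range, at 0.95 and 1.01 TPM. The ratio of Col8a1 to Col8a2 lay between 0.788 and 1.505 in IL-10 B-WT lungs and between 0.18 and 0.93 in IL-10 B-KO lungs. Col10a1, the growth plate collagen of this class, did not exceed 0.06 TPM.

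**Figure D5:**
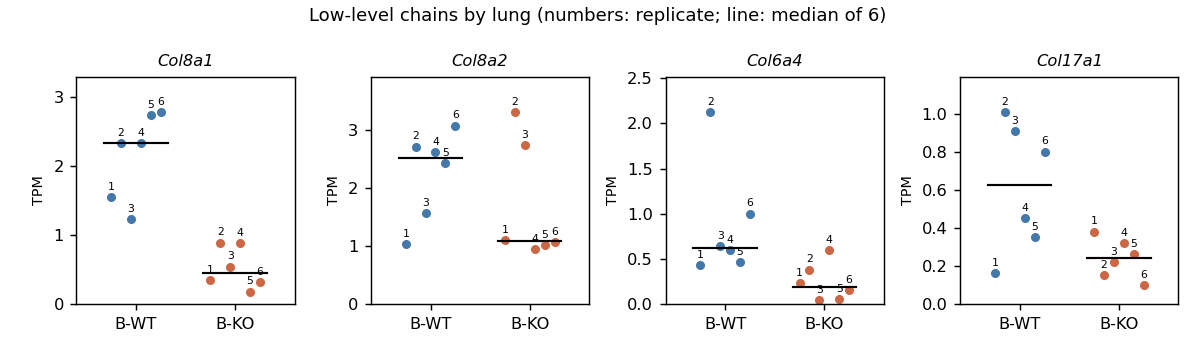
TPM per lung for low collagen genes including Col8a1, Col8a2, Col6a4 and Col17a1, with 1 point per lung and a bar at the median of each genotype. The genotypes are apart for Col8a1 and overlap for the others.

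The transmembrane collagens, which stay on the cell surface, had no member called. Col13a1 lay at 3.39, 13.6 and 17.3 TPM across IL-10 B-WT lungs and at 3.45, 8.46 and 27.9 TPM across IL-10 B-KO lungs, with a log2 fold change of -0.16 (SE 0.46) and a limma adjusted p of 0.893. Col23a1 had a log2 fold change of 0.09. Col17a1, the hemidesmosome collagen of basal epithelial cells, was too low to enter the test. It lay at 0.16, 0.63 and 1.01 TPM across IL-10 B-WT lungs and at 0.10, 0.24 and 0.38 TPM across IL-10 B-KO lungs. Its two-sided exact permutation p was 0.0346, and its limma adjusted p with no filter was 0.533. Col8a1, Col6a4 and Col17a1 were the 3 of 44 members with an unadjusted exact permutation p of at most 0.05. All 3 had lower means in IL-10 B-KO lungs, beside 4.03% of 31629 genes above 0 TPM that were lower and 3.28% that were higher at this p. Col25a1 did not exceed 0.13 TPM.

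Col7a1, which forms the fibrils that anchor epithelium to the stroma, lay at 2.19, 3.89 and 9.93 TPM across IL-10 B-WT lungs and at 1.46, 3.58 and 20.9 TPM across IL-10 B-KO lungs. Between genotypes the log2 fold change was 0.08 (SE 0.47) with a limma adjusted p of 0.947, and the sign turned when libraries were centred on their medians. Col26a1 and Col28a1 reached 2.00 and 1.15 TPM and did not enter the test.

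Among the genes that make, process and crosslink collagen, 1 of 30 tested was called, against 0.495% of all genes tested. In IL-10 B-KO lungs, 23 had a higher and 7 a lower mean. The median log2 fold change was 0.20. The gene called was Pcolce2, which helps remove the C-terminal propeptide from fibrillar procollagen, and it fell. Pcolce2 lay at 46.9 ± 18.9 TPM (SD, n = 6) for IL-10 B-WT and at 10.4 ± 5.20 TPM (SD, n = 6) for IL-10 B-KO, with a log2 fold change of -2.07 (SE 0.34) and a limma adjusted p of 0.0195. It was lowest in WT1 among IL-10 B-WT lungs, at 18.2 TPM, just under KO1 at 19.0 TPM. Lox, a crosslinking enzyme chosen after its values were seen, was highest in the collagen-rich lungs KO3, KO5 and WT1, at 80.2, 58.3 and 51.0 TPM, and its log2 fold change was 0.89 (SE 0.77) with a limma adjusted p of 0.613.

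Other matrix genes gave medians near 0. Of 17 basement membrane partners tested, 8 had a higher and 9 a lower mean, none was called, and the median log2 fold change was -0.07. The smallest p-values were for the laminin chains Lamc3 (-0.64 log2, limma adjusted p = 0.236), Lama2 (-0.78, adjusted p = 0.295) and Lamb2 (-0.35, adjusted p = 0.390). Of 16 elastic fiber and fibronectin genes tested, 6 had a higher and 10 a lower mean, none was called, and the median was -0.16. The smallest p-values there were for the microfibril-associated Ltbp2 (-1.30, limma adjusted p = 0.0981), for Ltbp4 (-1.51, adjusted p = 0.132), which binds latent TGF-beta to the matrix, and for Mfap2 (-0.84, adjusted p = 0.328), a microfibril protein.

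Of 8 collagen receptors tested, 5 had a higher and 3 a lower mean, none was called, and the median log2 fold change was 0.03. The fibroblast receptor Ddr2 was at -0.78 (limma adjusted p = 0.177), the integrin chain Itga1 at -0.44 (adjusted p = 0.319) and Lair1, an inhibitory collagen receptor of leukocytes, at 1.77 (adjusted p = 0.361). With no adjustment, some genes of these lists were lower at a limma p of at most 0.05. These were 3 of 17 basement membrane partners, 4 of 16 elastic fiber and fibronectin genes and 2 of 8 receptors. Higher at that p was 1 of 8 receptors. Over all genes tested, 5.71% were lower and 6.83% higher at that p, and the lists were not tested as sets.

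Among markers of fibroblasts, the main makers of types I and III, 2 of 10 had a higher and 8 a lower mean under IL-10 B-KO, none was called, and the median log2 fold change was -0.26. Their sum lay between 358 and 1882 TPM for IL-10 B-WT and between 262 and 657 TPM for IL-10 B-KO. Inmt carried much of this sum, and over the other 9 markers it lay between 219 and 508 TPM for IL-10 B-WT, with 278 TPM in WT1, and between 118 and 362 TPM for IL-10 B-KO. Mesothelial markers, of the cells covering the lung, had a higher mean for 5 of 5 tested, with a median of 1.11 and sums of 18.0 to 112 TPM and 57.8 to 150 TPM.

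Beside the lower Col8a1, 4 of 8 pericyte markers were called as lower as well, against 0.495% of all genes tested that were called. The marker lists were chosen with earlier results of these data known. All 8 pericyte markers had a lower mean, whereas 63.2% of all genes tested had a higher one. The median log2 fold change of these markers was -1.45, and those called were Trpc6, Gucy1a1, Notch3 and Pdgfrb. Their sum lay between 285 and 743 TPM for IL-10 B-WT and between 83.4 and 329 TPM for IL-10 B-KO. All 8 smooth muscle markers had a lower mean (median -0.90, sums of 266 to 1088 and 114 to 562 TPM), as did all 10 endothelial markers (median -0.39, sums of 2081 to 4641 and 2185 to 4674 TPM), with none called. Their part in the Col8a1 result was not tested. In whole-lung RNA, fewer cells of a type and less RNA per cell cannot be told apart.

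Of the leukocyte markers, only Cd79a was called, against 0.495% of all genes tested. All 7 neutrophil markers had a higher mean in IL-10 B-KO lungs (median 1.87, sums of 276 to 2479 and 1041 to 7527 TPM), as did all 8 macrophage markers (median 1.42, sums of 759 to 12441 and 3701 to 11030 TPM). All 6 B cell markers had a lower mean, with a median of -2.45, and their sums were 66.1 to 795 TPM and 5.21 to 74.5 TPM. The alveolar type 2 markers had a higher mean for 8 of 8 (median 0.85) and the alveolar type 1 markers for 2 of 6 (median -0.13). TPM are shares of a whole, and how far these values entered those of the collagens was not tested, apart from a rescaling without immunoglobulin genes, which took 0.248% to 15.4% of the TPM of IL-10 B-WT lungs and 0.00199% to 0.0647% of IL-10 B-KO lungs. Under it Col8a1 was still called, with a limma adjusted p of 0.0431.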

How the data were processed

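Total RNA from 12 lungs, 6 per genotype, was sequenced. The deposited table holds TPM per gene, made by the authors before deposit. The submitters' processing notes name fastp, HISAT, RSEM and GRCm38.p5, with versions not given in the sources used here. TPM keep no depth, so no counting interval or floor is given. All sample columns were used, leaving 0 unused.

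Log2(TPM + 1) was fitted with limma 3.58.1 (trend on) in R 4.3.3, with no covariate beside genotype, for genes at 1 TPM or more in at least 6 libraries. P-values were two-sided and adjusted by Benjamini-Hochberg over 15148 genes. Calls needed an adjusted p no larger than 0.05 together with a log2 fold change of 1 or more in size. Single genes were also compared with a two-sided exact permutation test of mean log2(TPM + 1). The labels do not say more of the lungs than their replicate number, so p-values measure the spread between these samples. No 2 libraries were identical. Fits were checked on simulated data.

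The members and all lists (classes, synthesis and matrix lists, cell markers) were chosen with earlier results of these data known. Values by lung are given for called members, the 10 tested members with the smallest p, types I, III and IV and the most abundant member of each class. From each matrix list, genes called or else the 3 with the smallest p are named. Lox was chosen later. Alternatives were another pseudocount, other filters, rescaling, quantile normalization, median centring, array quality weights, a replicate block and each library left out. Leaving out 2 or 3 libraries, a filter on a mean TPM of at least 1, and a lowered filter when an IL-10 B-WT library was left out were added after seeing the data. Positions are from GENCODE (GRCm38) and sequences from RefSeq (GRCm38.p6).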

Additional observations from a re-analysis of the deposited data

Results flagged for a closer look

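In each genotype, the gap between the highest or lowest lung and its nearest neighbour was divided by the range of the 6 lungs on the log2(TPM + 1) scale (Dixon's ratio). A lung was far from the others by this measure in 15 of 74 groups examined, of which 10 of 56 were groups of single collagen genes. Chance gives this in about 5% of groups, and genes of 1 lung are not independent. All 15 were in IL-10 B-WT lungs.

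WT1 was far above the others for 8 genes. The ratio was 0.898 for Col15a1 (47.3 TPM in WT1), 0.819 for Col5a1 (104.1 TPM), 0.745 for Col6a2 (109.2 TPM) and 0.744 for Col6a3 (109.3 TPM). It was 0.725 for Col5a3 (13.0 TPM), 0.69 for Col1a1 (366.4 TPM), 0.654 for Col18a1 (37.7 TPM) and 0.629 for Col6a1 (140.3 TPM). The summed TPM gave ratios of 0.829 for the multiplexins, 0.745 for all collagen chain genes, 0.71 for type VI and 0.63 for the fibrillar class, again with WT1 highest. WT1 was not far below the others for any collagen gene, and its Col8a1 value lay within the IL-10 B-WT range.

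WT5 was far below the others for Col23a1, with a ratio of 0.722 (4.37 TPM), for Col4a5, with a ratio of 0.627 (6.42 TPM), and for the summed transmembrane collagens, with a ratio of 0.789 (8.22 TPM).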

How the results depend on the processing

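The number of collagen genes called, 1 of 28, was 1 with a pseudocount of 0.1, with immunoglobulin genes removed, with a mean TPM of at least 1 and with no minimum fold change. It was 0 with no filter, 0 with a mean TPM of at least 5 (Col8a1 then not tested), 0 with quantile normalization, 0 with median centring and 0 with array quality weights (Col8a1 log2 fold change -0.96). It was 6 with WT1 and KO2 both left out, 4 with WT5 left out as well, 1 with WT1 and WT5 left out, and between 0 and 1 with 1 library left out. Deviations of lungs with the same replicate number had correlations from -0.29 to 0.05. These gave no sign that the numbers pair lungs, but so few values cannot exclude it. With the replicate block, 0 collagen genes and 45 genes in all were called, and the Col8a1 adjusted p was 0.113. The count over all genes, 75, was 6 with no filter, 39 with quantile normalization, 36 with median centring and 318 with array quality weights. With 1 library left out it was between 15 (without KO5) and 576 (without WT1), with 17 without KO1, 20 without KO3 or WT4, 23 without WT5, 33 without WT6, 43 without KO6 and 44 without WT3. With array quality weights, 5 of 28 collagen genes were higher and 4 lower at an unadjusted limma p of at most 0.05. Over all genes tested, 11.1% were higher and 13.8% lower at that p. The median collagen log2 fold change, 0.29, was between 5.26e-05 and 0.47 with 1 library left out. Quantile normalization and median centring moved the median of all genes from 0.10 to 0.0054 and -0.0085, and that of the collagen genes to 0.11 and 0.19. The sign turned for Col7a1 with median centring (-0.023), without WT3 (-0.047) or WT5 (-0.032), also under the lowered filter, and without KO3, the range with 1 library left out being -0.32 to 0.31. It turned for Col13a1 without KO2, the range being -0.45 to 0.10, and with WT1 and KO2 left out (0.20). The causes were not tested. The 6 lungs per genotype, a single day and an unknown depth limit these values.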
